A study of Brassica rapa subsp. pekinensis with 10 samples.

Results

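Of 47548 cabbage features on an oligonucleotide array, 112 (0.236%) were far brighter in arrays of the Chinese cabbage variety Shin-Hong taken in cold than in those of the variety Man-Su. A feature was a member when its lowest log2 intensity over the 4 Shin-Hong cold arrays exceeded its highest over the 4 Man-Su cold arrays by more than 2.0 log2 units, which is 4-fold. The members were split by their Man-Su level. In 25 members the mean over the Man-Su cold arrays lay below the random-sequence control, a feature of random-sequence probes read here as background, and these are called on or off. The other 87 had a measurable level in Man-Su and are called graded. For comparison, 95 features were brighter in Man-Su cold arrays by the same margin.

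The arrays were one-colour NimbleGen arrays of total RNA from Brassica rapa subsp. pekinensis. The arrays used were Shin-Hong after 15, 30, 60 and 120 min of cold, Shin-Hong labelled normal, Man-Su after 15, 30, 60 and 120 min of cold, and Man-Su labelled normal. Each of these 10 groups had 1 array, and the labels call the plants of both normal arrays wild type. The sources used here do not give the tissue, the temperature, the plants' age or any pooling, so no tissue marker could be checked.

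Chinese cabbage is a leafy, heading form of Brassica rapa, and its varieties are bred lines that can carry different alleles of the same gene. In Brassica plants cold is known to switch on transcription factors of the CBF family within minutes to hours, and these in turn raise genes for cold tolerance. Signal on a short-oligonucleotide array depends on how much transcript is present and on how well the probes match its sequence, and these cannot be told apart here. In RNA of a whole sample, fewer cells of a type and less RNA per cell cannot be told apart either. The files pair no feature with a gene name, so members are given by their identifier and no function is assigned to them.

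The 2 normal arrays went against their variety labels at the members. All 112 members were higher in the array labelled Man-Su normal than in the array labelled Shin-Hong normal, against 49% of all features. The 95 features brighter in Man-Su cold reversed too, with 0 of them higher under the Man-Su normal label. The reversal was thus not particular to the members. The sample titles also give the normal arrays letters that belong to the opposite variety in the cold arrays. The cause was not tested, and results that rest on the normal arrays are given with the labels as deposited and with them exchanged.

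The Shin-Hong array at 120 min lay nearer to Man-Su than to its own variety over all features, and the Man-Su array at 30 min was the Man-Su cold array least far from Shin-Hong. The Shin-Hong array at 120 min differed by a median of 0.30 log2 units from the mean of the other Shin-Hong cold arrays and by 0.27 from the mean of the Man-Su cold arrays. The Man-Su array at 30 min differed by a median of 0.18 from the mean of the other Man-Su cold arrays and by 0.25 from the Shin-Hong mean. At the members the rule itself keeps every Shin-Hong cold array far above every Man-Su one. Distances there cannot show whether an array stood between the varieties, and they are given as description. The Shin-Hong array at 120 min differed at the members by a median of 0.35 from its own variety and by 3.42 from Man-Su. The Man-Su array at 30 min differed at the members by 0.43 from its own variety and by 3.57 from Shin-Hong. Without both arrays the rule took 212 features, of which 29 were on or off, where it took 112 and 25 with all 8.

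Array medians lay between 12.02 and 12.08 log2 units, so the arrays were on a common scale at mid level. The random-sequence control was 5.42 to 5.74 in the Shin-Hong cold arrays and 5.23 to 5.63 in the Man-Su cold arrays. The mean of all 6 control features was 8.37, 8.11, 8.23 and 8.44 in Shin-Hong at 15, 30, 60 and 120 min and 7.77, 8.36, 7.58 and 7.40 in Man-Su. Control signal was thus higher in Shin-Hong at 15, 60 and 120 min but not at 30 min, by less than the 2.0 log2 units of the rule. Its part in the results was not tested beyond a fit with the control level as a term.

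The members were chosen by their variety difference in the cold arrays, so that difference is described without a test. In 5758 features (12.1%) all Shin-Hong cold arrays lay above all Man-Su cold arrays by any margin, and the members were those with the widest gap in this direction. Their gap between the lowest Shin-Hong and the highest Man-Su value had a median of 2.72 log2 units and reached 7.76. It exceeded 3 log2 units in 41 members and 4 log2 units in 20. The 3 features just inside the rule had gaps of 2.02, 2.03 and 2.05, and the 3 just outside had 1.99 each. The means of the varieties differed by a median of 3.66 log2 units, with a range of 2.34 to 9.17. Nearly all members rested on a full set of probes: 110 were summarised from 7 probes, as were 98.4% of all features, and 2 from 5 probes. The highest value of a member was 14.43, below the brightest features of the arrays.

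**Figure D1:**
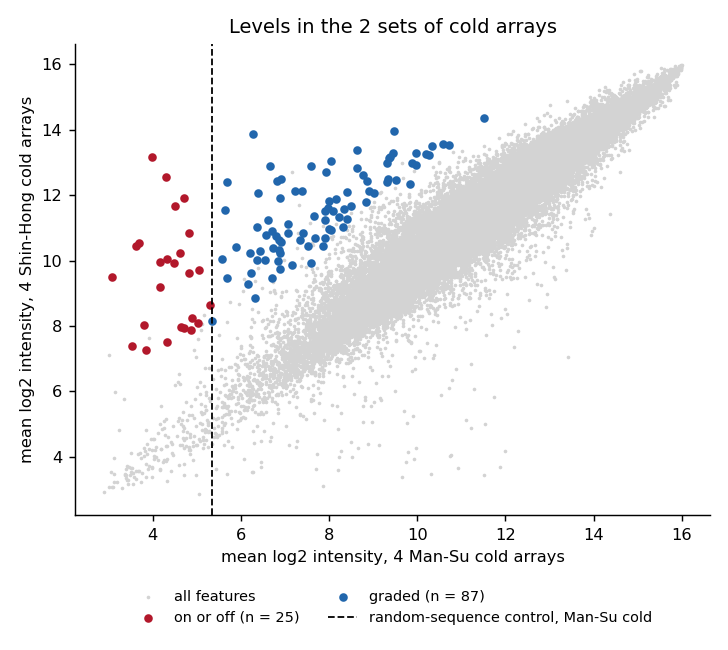
Mean log2 intensity in the 4 Shin-Hong cold arrays (vertical axis) against the 4 Man-Su cold arrays (horizontal axis), with 1 point per feature; grey points are all 47548 features, red points the 25 on or off members and blue points the 87 graded members, and the dashed line is the random-sequence control in Man-Su cold (5.34). The members form the upper edge of the cloud, and their Man-Su means run from 3.08 to 11.51.

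The 25 on or off members had signal above the control in Shin-Hong and a mean below it in Man-Su. Their median was 9.82, 9.71, 9.45 and 9.14 log2 units in Shin-Hong at 15, 30, 60 and 120 min of cold, against 4.18, 4.30, 4.24 and 4.87 in Man-Su. The random-sequence control averaged 5.34 in the Man-Su cold arrays. Of these members, 15 lay below the control in all 4 Man-Su arrays, and the other 10 were above it in at least 1, with values of up to 7.03. Values below the control have no meaning as levels, so the fold is given as a bound, with each Man-Su value raised to its array's control where it was lower. On that scale Shin-Hong was at least 3.76-fold to at least 224-fold higher, with a median bound of 17.8-fold. The same split gave 35 of 95 (36.8%) among the features brighter in Man-Su, where 25 of 112 (22.3%) members were on or off. That difference in shares was not tested.

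Brapa_ESTC004105 had the largest bound. It read 13.37, 13.46, 13.55 and 12.27 log2 units in Shin-Hong at 15, 30, 60 and 120 min, against 3.51, 3.67, 5.29 and 3.50 in Man-Su. Its lowest Shin-Hong value was at 120 min, and its Man-Su value at 60 min was the only one of the 4 to reach the control, which was 5.23 there. Shin-Hong cold was at least 224-fold higher. Brapa_ESTC012142 read 12.68, 12.79, 12.49 and 12.26 in Shin-Hong, against 4.18, 4.50, 4.39 and 4.15 in Man-Su. All 4 Man-Su values lay below the control, the Shin-Hong values spanned 0.53 log2 units, and the bound was at least 149-fold.

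The 87 graded members kept a signal in Man-Su that was lower, not lost. Their median was 11.68, 11.60, 11.45 and 11.51 log2 units in Shin-Hong at 15, 30, 60 and 120 min, against 7.69, 7.70, 7.71 and 7.69 in Man-Su. In these members Shin-Hong was 5.07-fold to 194-fold higher by the ratio of geometric means, with a median of 11.8-fold. The fold exceeded 16 in 24 of them. In 7 graded members at least 1 Man-Su array fell below its control. The split depends on which control is taken as background: against the mean of all 6 controls in Man-Su cold, 7.77 log2 units, 69 of the 112 members would be on or off.

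Brapa_ESTC004379 had the largest graded difference. It read 14.33, 14.15, 13.39 and 13.67 log2 units in Shin-Hong at 15, 30, 60 and 120 min, against 6.08, 6.78, 6.21 and 6.09 in Man-Su, a 194-fold difference of means. The values spanned 0.94 log2 units in Shin-Hong and 0.71 in Man-Su over the 4 times, and every Man-Su value was above its control. Brapa_ESTC048792 read 12.35, 12.57, 12.46 and 12.18 in Shin-Hong, against 5.15, 6.75, 5.33 and 5.52 in Man-Su. Its Man-Su value was highest at 30 min and below the control at 15 min, where the control was 5.24, and the difference of means was 104-fold.

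**Figure D2:**
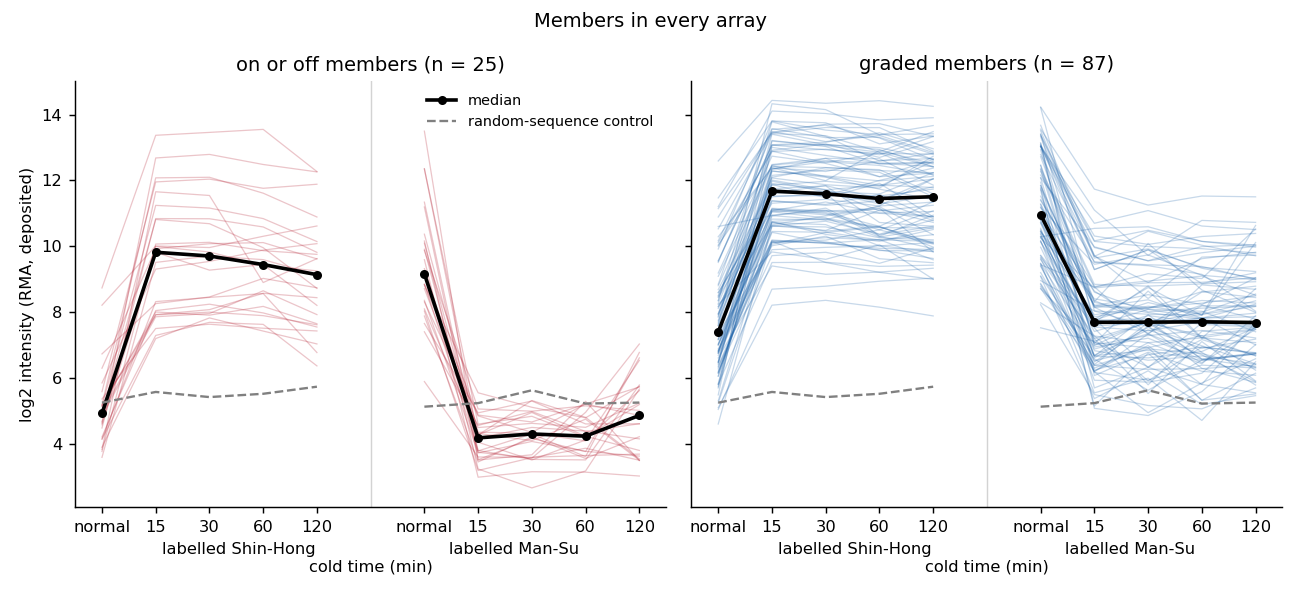
Log2 intensity of every member (thin lines) in the 10 arrays, with the on or off members on the left and the graded members on the right; within each panel the arrays labelled Shin-Hong stand left of those labelled Man-Su, each from normal to 120 min of cold, the black line is the median and the dashed line the random-sequence control. In cold the Shin-Hong medians lie at 9.14 to 9.82 and 11.45 to 11.68, and the normal array of each label lies near the cold level of the other variety.

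The range over the 4 Shin-Hong cold arrays was under 1 log2 unit in 94 of the 112 members (83.9%), against 88.6% of all features, with a median of 0.66 and limits of 0.13 and 2.76. Over all features that range had a median of 0.48. In Man-Su the members' range was under 1 log2 unit in 65 (58.0%), against 88.9% of all features. Its median was 0.83, with limits of 0.10 and 3.47, against a median of 0.41 over all features. By both counts the members were no steadier over cold time than the array as a whole. They were dim in Man-Su cold, at a median percentile of 1.41 among all features, and the comparison was not matched for level. Brapa_ESTC045728 was the steadiest in Shin-Hong, at 9.51, 9.52, 9.39 and 9.43 log2 units at 15, 30, 60 and 120 min, against 6.68, 6.84, 6.53 and 6.74 in Man-Su. Brapa_ESTC006254, an on or off member, moved most in Shin-Hong, with 11.66, 11.54, 8.90 and 9.63, against 3.60, 3.60, 3.65 and 3.69 in Man-Su. It was lower at the 2 later times than at the 2 earlier ones in Shin-Hong and stayed below the control at all 4 times in Man-Su.

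No member was called for a change over cold time. The slope per doubling of time was fitted with limma over the 8 cold arrays, allowing a level for each variety, and a feature was called where its p, adjusted by Benjamini-Hochberg across the whole array, was under 0.05. Of all features 33 were called higher (0.0694%) and 7 lower (0.0147%), none of them a member. An unadjusted p under 0.05 was reached by 15 members, 3 higher and 12 lower, or 13.4% against 12.6% of all features. That count was 8 without Shin-Hong at 15 min, 9 without Shin-Hong at 30 min and 25 without Man-Su at 15 min. The median slope of the members was -0.05 log2 units per doubling, against 0.000183 over all features. In simulated data this test recovered 23% of changes of 1 log2 unit over the whole span and 69% of changes of 2 log2 units.

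The members with the smallest p in each direction were Brapa_ESTC048768 and Brapa_ESTC051878. Brapa_ESTC048768 read 12.01, 11.72, 11.08 and 11.25 log2 units in Shin-Hong at 15, 30, 60 and 120 min, against 8.30, 7.99, 7.79 and 7.61 in Man-Su. Its slope was -0.26 ± 0.06 log2 units per doubling (SE, limma adjusted p = 0.127), and it was lower at 120 than at 15 min in both varieties. Brapa_ESTC051878 read 11.38, 11.25, 11.38 and 12.06 in Shin-Hong, against 7.76, 8.29, 7.94 and 8.35 in Man-Su. Its slope was 0.18 ± 0.07 (SE, limma adjusted p = 0.369), and the highest value of both varieties was at 120 min.

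The slopes of the varieties were also set against each other. The limma test of the slope difference called 0 members and 0 features in all (0%), and the smallest adjusted p of a member was 0.975. An unadjusted p under 0.05 was reached by 21 members (18.8%), against 2119 of all features (4.46%). Of these 21 members, 19 had a slope more negative in Shin-Hong than in Man-Su and 2 a slope more positive. The members were dim in Man-Su cold, and these shares were not matched for level. Where Man-Su values lay below the control, the Man-Su slope is not measured. The count of 21 moved with single arrays, to 8 without Man-Su at 120 min, 11 without Shin-Hong at 120 min and 39 without Man-Su at 15 min. In the simulation this test recovered 0% of changes of either size, so its 0 calls do not show that the slopes were alike.

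The values at 120 min stood out by eye, and their pattern was noticed in the data and not tested. The Shin-Hong value was lowest at 120 min in 61 of the 112 members (54.5%), against 38.2% of all features, and highest at 15 min in 42 (37.5%), against 18.1%. At 120 min the Shin-Hong value was below the mean of the 3 earlier cold times in 83 members (74.1%), against 51.1% of all features. The median of that change was -0.25 log2 units in the members (-0.45 on or off, -0.20 graded), against -0.01 over all features. The Shin-Hong array at 120 min was also the one that lay nearer to Man-Su over all features.

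In Man-Su the matching change was upward in 59 members (52.7%), close to the 54.3% of all features. The Man-Su value at 120 min was over 1 log2 unit above the earlier mean in 16 members (14.3%), against 1.01% of all features. It was over 1 log2 unit below the earlier mean in 6 members (5.36%), against 0.745% of all features, so large changes in both directions took a higher share of the members. The members were dim in Man-Su cold, at a median percentile of 1.41 among all features, and these shares were not matched for level. The 16 that were higher were 7 on or off and 9 graded members, and 14 of the 16 were also lower in Shin-Hong at 120 min. In the 7 on or off members the earlier Man-Su values lay below the control, so the size of their rise is not measured. The Man-Su control was 5.26 at 120 min and 5.24, 5.63 and 5.23 at the earlier times. Both changes, lower in Shin-Hong and higher in Man-Su, were seen in 44 members (39.3%), against 25.6% of all features. The opposite pair of changes, which widens the gap in the members, was seen in 14 of the 112 and in 9626 of all 47548 features. Among the 95 features brighter in Man-Su cold, the same pair of changes, lower in Shin-Hong and higher in Man-Su, was seen in 29 (30.5%), and 60 (63.2%) were lower in Shin-Hong at 120 min. In those features that pair widens the gap, and the pair that narrows it was seen in 12 (12.6%). The gap narrowed from both sides in 28.2% of all features, taking each in its own direction.

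The on or off member with the largest such change, chosen after its values were seen, read 11.24, 11.16, 10.84 and 10.15 log2 units in Shin-Hong at 15, 30, 60 and 120 min, against 3.75, 3.57, 4.96 and 7.03 in Man-Su. It was below the control in Man-Su at the first 3 times and above it at 120 min, where the control was 5.26. The slope difference was -1.49 ± 0.29 per doubling of time (SE, limma adjusted p = 0.975).

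**Figure D3:**
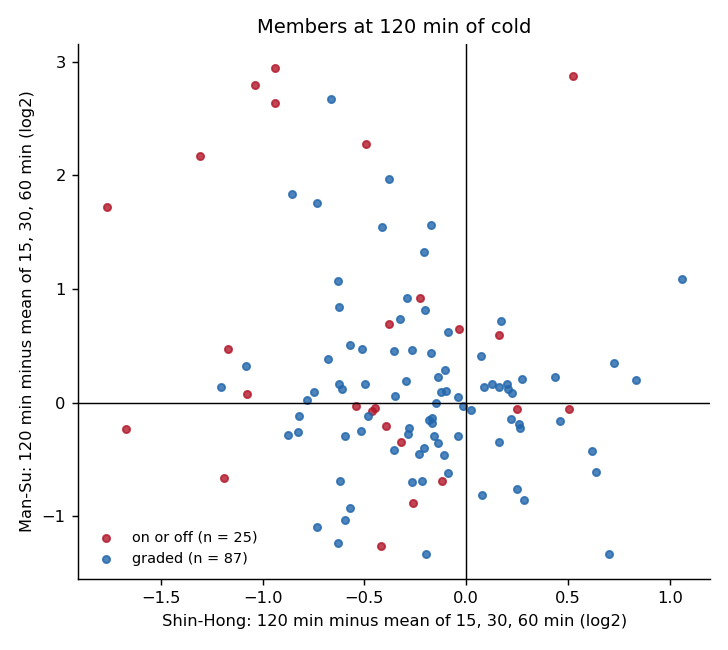
Change at 120 min of cold from the mean of 15, 30 and 60 min, in log2 units, for each member in Shin-Hong (horizontal axis) and Man-Su (vertical axis); red points are on or off members and blue points graded members. Points in the upper left quadrant, 44 of 112, were lower in Shin-Hong and higher in Man-Su at 120 min.

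The normal arrays were not used to choose the members. The on or off members had a median of 4.93 log2 units in the array labelled Shin-Hong normal, against 9.17 in the array labelled Man-Su normal. The graded members had a median of 7.40 in the array labelled Shin-Hong normal, against 10.97 in the array labelled Man-Su normal. The difference, Shin-Hong minus Man-Su, was negative in all 112 members, with a median of -3.47 and a range of -7.73 to -0.37. It was larger than 2.0 log2 units in 101 members, against 0.894% of all features. For the 95 features brighter in Man-Su cold this difference was positive throughout, from 0.44 to 8.66 with a median of 3.68. With 1 array per label these are counts without a test.

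Set against the cold arrays, each normal array lay near the other variety at the members. The array labelled Shin-Hong normal lay below all 4 Shin-Hong cold arrays in 112 members, by over 2.0 log2 units in 103. Its median distance from the Man-Su cold mean was -0.08 log2 units, and it fell within the range of the Man-Su cold arrays in 50 members, above it in 29 and below it in 33. The array labelled Man-Su normal lay above all 4 Man-Su cold arrays in 109 members, by over 2.0 log2 units in 95. Its median distance from the Shin-Hong cold mean was -0.20, and it fell within the Shin-Hong cold range in 44 members, above it in 19 and below it in 49. The shares of all features in such positions are not given here, so these counts describe the members only. The on or off split crossed over too: 18 of the 25 were below the control in the array labelled Shin-Hong normal and 0 in the array labelled Man-Su normal.

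The named members had the same order. Brapa_ESTC012142 read 4.63 log2 units in the array labelled Shin-Hong normal, against 12.36 in the array labelled Man-Su normal, the largest such difference of the 112. Brapa_ESTC004379 read 7.65 in the array labelled Shin-Hong normal, against 13.13 in the array labelled Man-Su normal. Brapa_ESTC048792 read 7.88 in the array labelled Shin-Hong normal, against 11.71 in the array labelled Man-Su normal. The Shin-Hong normal value of these 3 lay 0.32, 1.36 and 2.19 log2 units above their Man-Su cold mean, and the Man-Su normal value lay -0.20, -0.75 and -0.68 from their Shin-Hong cold mean.

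Not every member had the exchanged level. In 14 members the array labelled Shin-Hong normal lay over 1 log2 unit above the Man-Su cold mean, and in 17 others the array labelled Man-Su normal lay over 1 log2 unit below the Shin-Hong cold mean. Together these were 31 of the 112 (27.7%). Counting distances of over 1 log2 unit in either direction, 39 of the 112 (34.8%) had a normal array away from the cold mean of the other label. The members named next were chosen after their values were seen. Brapa_ESTC004105 read 8.74 log2 units in the array labelled Shin-Hong normal, against 13.50 in the array labelled Man-Su normal, so its Shin-Hong normal value lay between the Shin-Hong cold mean of 13.16 and the Man-Su cold mean of 3.99. Brapa_ESTC006254 read 3.83 in the array labelled Shin-Hong normal, against 5.89 in the array labelled Man-Su normal, which left its Man-Su normal value 4.54 below the Shin-Hong cold mean. A graded member had the smallest difference of all, with 9.92 in the array labelled Shin-Hong normal, against 10.29 in the array labelled Man-Su normal. In that member both normal arrays lay near the Man-Su cold mean of 10.33 and over 3 log2 units below the Shin-Hong cold mean of 13.51.

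**Figure D4:**
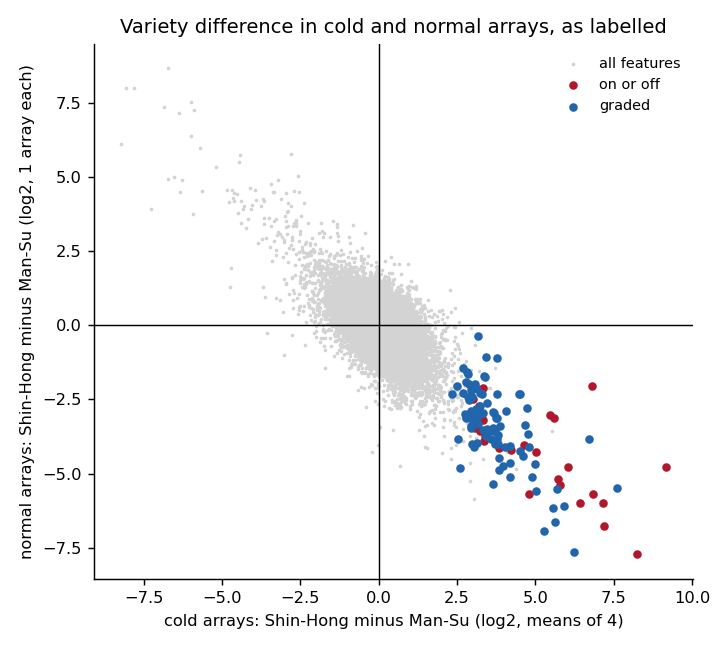
Shin-Hong minus Man-Su difference in the normal arrays as labelled (vertical axis, log2 units, 1 array each) against that in the cold arrays (horizontal axis, log2 units, means of 4); grey points are all features, red points on or off members and blue points graded members. All 112 members lie in the lower right quadrant, with normal differences from -7.73 to -0.37.

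Cold was then set against normal over both varieties, a contrast in which the variety difference cancels. With the labels as given, limma called 0 of the 112 members, while 760 of all features were higher (1.6%) and 204 lower (0.429%). Only 1 member reached an unadjusted p under 0.05, against 22.9% of all features, and the smallest adjusted p of a member was 0.193. The error of this fit comes from how the variety difference changes between cold and normal. In all 112 members that difference was large in cold and changed sign, which makes the error large. The 0 calls therefore do not show that the members were unchanged in cold. The median change of the members was 0.10 log2 units, and 63 of 112 were above 0, against 0.02 and 52.2% over all features. That sign depended on the setting. With the control level as a term the members' median change was -0.57 and 20 were above 0. With single cold arrays left out the median ran between -0.15 and 0.43, with 45 to 87 above 0. It was below 0 without any 1 of the Shin-Hong cold arrays and above 0 without any 1 of the Man-Su cold arrays. Leaving out 1 cold array unbalances the varieties, so part of the members' variety difference enters the change. The direction of that shift is set by the label of the array left out, so it does not measure how stable the change was. With the labels of the normal arrays exchanged each change keeps its value and only its error differs. Brapa_ESTC012142 shows this: its change was -0.06 log2 units both ways, with an SE of 3.11 as labelled and 0.17 with the labels exchanged.

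With the labels exchanged limma called 17 of the 112 members, 13 higher in cold (8.88% of all features were) and 4 lower (3.83% of all features were). The members were thus called about as often as features in general, so these calls do not set them apart. The member with the smallest p among the 13 was graded. It read 12.28, 12.14, 11.99 and 12.12 log2 units in Shin-Hong at 15, 30, 60 and 120 min, 7.01, 7.29, 7.44 and 7.22 in Man-Su, and 5.80 and 10.91 in the arrays labelled Shin-Hong normal and Man-Su normal. Its change in cold was 1.33 ± 0.17 on the log2 scale (SE, limma adjusted p = 0.00579). The member with the smallest p among the 4 was graded as well, with a change of -1.002 ± 0.18 (SE, limma adjusted p = 0.0165). Both were chosen after their values were seen.

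Without the array labelled Man-Su normal, limma called 108 members, all higher in cold, where it called 11% of all features higher and 6.88% lower. Without the array labelled Shin-Hong normal it called 106 members, all lower, where it called 4.99% of all features higher and 2.84% lower. Each of these fits sets the cold arrays of 1 label against the normal array of that label alone, so the sign follows the label that remains.

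The members were unevenly spread along the feature numbers. From feature number 48251 to the last, 52060, there were 2961 features (6.23% of all) but 44 members (39.3%), of which 37 were graded and 7 on or off. The same stretch held 22 of the 95 features brighter in Man-Su cold (23.2%). Members made up 1.49% of the features in the stretch and 0.153% of those before it. Features in the stretch were also dimmer, with a median level of 10.69 log2 units against 12.12 before it. Members were dim in Man-Su cold, at a median percentile of 1.41 among all features, and the shares here were not matched for level. The start of the stretch was found from the values: past it, features numbered odd and the next even number went together in the variety difference, and before it they did not. Across neighbouring features, which share their arrays and are not independent replicates, the correlation of the cold variety difference was 0.71 over 1226 such pairs in the stretch and 0.09 over 20764 pairs before it. For even numbers with the next odd number it was 0.02 over 1187 pairs in the stretch. What the paired numbers stand for is not given in the sources used here.

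**Figure D5:**
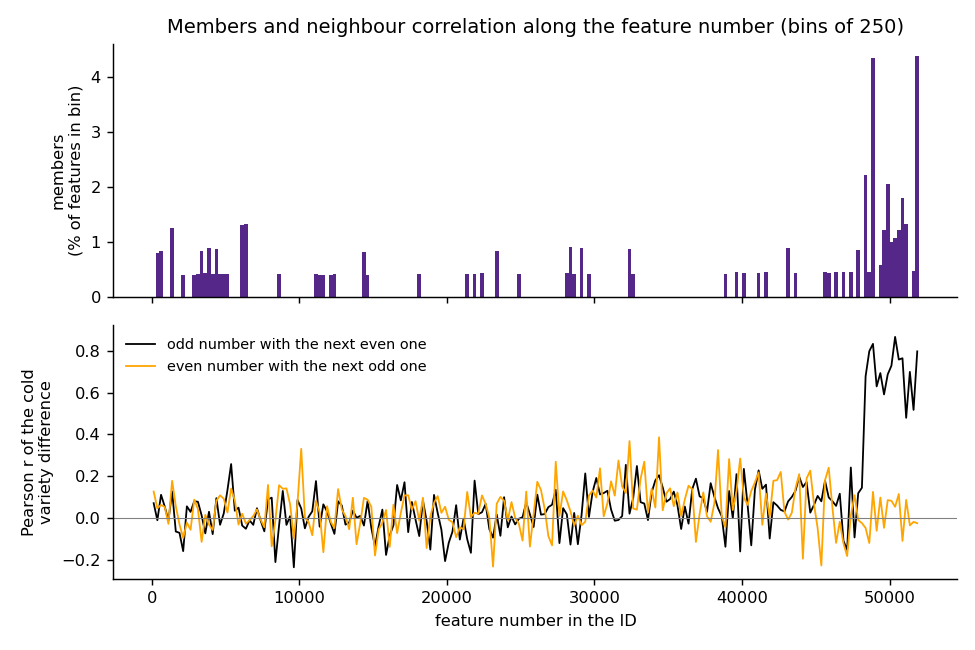
Share of features that are members, in percent (upper panel), and Pearson correlation of the cold variety difference between neighbouring feature numbers (lower panel), in bins of 250 numbers along the feature number; the black line joins odd numbers with the next even one and the orange line even numbers with the next odd one. Past number 48251 the black line lies between 0.48 and 0.87, and before it no bin exceeds 0.26.

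In the stretch, 38 of the 44 members had their odd or even partner on the array. For 18 of them the partner was a member too, which makes 9 pairs, and counting each pair once leaves 103 members. The profiles of the 2 features of a pair over the 10 arrays correlated at 0.887 to 0.992, and 6 of the 9 pairs had both in the same class. Both features of each pair met the rule, which by itself makes their profiles alike. These correlations are therefore description, and they were not set beside those of unpaired members. The differences within a pair were not equal, since the variety differences of the 2 features lay 0.04 to 3.97 log2 units apart, with a median of 1.36. Brapa_ESTC048792 was in such a pair, and its partner read 12.45, 12.12, 11.86 and 12.04 log2 units in Shin-Hong at 15, 30, 60 and 120 min, against 7.20, 7.70, 7.22 and 7.47 in Man-Su. Both were graded, and the partner had the smaller variety difference, 4.72 against 6.70.

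Of the other 20 partners in the stretch, which the rule did not take, 17 were higher in Shin-Hong cold. The variety difference of these 20 had a median of 1.62 log2 units and a range of -0.30 to 2.95, and it was over 1 in 14. In 15 of the 20 the 4 Shin-Hong arrays lay above the 4 Man-Su arrays without overlap, against 12.1% of all features. The stretch was marked off by how far such neighbours went together in this same difference, so these counts describe it and are no separate support. Before the stretch 67 members had a partner number, and none of those partners was a member. Of these 67 partners, 37 were higher in Shin-Hong cold, with a median of 0.07, and 5 were over 1. In 12 of the 67 (17.9%) the Shin-Hong arrays lay above the Man-Su arrays without overlap, against 12.1% of all features.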

How the data were processed

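Per the submitters' processing notes, the authors made the values with RMA, a method that subtracts background, equalises arrays and combines the probes of a feature. The sources used here do not give its software, its version or whether it was run on all 10 arrays at once. The deposited intensity per feature is linear, per the file headers, and was taken to log2. The files also hold another value per feature, the number of probes, per the file headers, and their error column was not used. The control features stayed out of the fits.

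The members were found on the deposited values, with quantile normalization and median centring as alternatives. The members, classes and comparisons were chosen with earlier results of these data known. Fits used limma 3.58.1 in R 4.3.3 over all 47548 features, with Benjamini-Hochberg adjustment. They had 5 residual degrees of freedom for the time slope and 4 for the slope difference and for cold against normal. With 1 array per group, p-values measure only the spread between these arrays, which may be technical, and the number of arrays limits the precision. Each test was run on simulated data of 47548 features. The files pair no feature with a gene, since the gene column held 0 entries and 0 identifiers matched the RefSeq table. No sequences were used.

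Identifiers were printed for the 2 largest bounds, the 2 largest graded differences, the smallest p in each direction of the time slope, and the smallest and largest range in Shin-Hong cold.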

Additional observations from a re-analysis of the deposited data

Results flagged for a closer look

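Values were checked for 1 array far from the others of its set, in 28 sets of 4 or 5 arrays, and 9 stood apart. Chance alone would single out about 1 in 20 independent sets. The sets here share arrays, and the named members were chosen by their values, so 9 of 28 is no measure of an excess. The normal arrays account for 4 of the 9. The median of the on or off members was 4.93 log2 units in the array labelled Shin-Hong normal, far below the 4 Shin-Hong cold arrays, and 9.17 in the array labelled Man-Su normal, far above the 4 Man-Su cold arrays. The median of the graded members was 7.40 in the array labelled Shin-Hong normal and 10.97 in the array labelled Man-Su normal, in the same directions.

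The random-sequence control was 5.63 in Man-Su at 30 min of cold, above the other Man-Su arrays whether or not the normal array was counted among them. Brapa_ESTC004105 stood apart at 12.27 in Shin-Hong at 120 min, below the other cold times, and at 5.29 in Man-Su at 60 min, above them. Brapa_ESTC051878 stood apart at 12.06 in Shin-Hong at 120 min, above the other cold times.

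The members' median Shin-Hong minus Man-Su difference was -3.47 in the normal arrays, where every member was positive in the cold arrays. That change of direction was not tested, since each variety has 1 normal array. The 5 barcode controls, which take no part in the comparisons, averaged 8.55 in the 8 cold arrays and 8.01 in the 2 normal arrays, 0.54 log2 units higher in cold.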

How the results depend on the processing

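The rule took 117 features after quantile normalization, 107 of them among the 112, and 111 after median centring, all among the 112. It took 176 at a margin of 1.5 log2 units and 41 at 3.0, and 114, 115, 118, 164, 116, 134, 113 and 129 when single cold arrays were left out (113 to 164). The highest count, 164, came without Shin-Hong at 120 min, and 212 came without that array and Man-Su at 30 min together, an alternative chosen after seeing the data. A gap over fewer arrays cannot be smaller. The on or off class held 29 members after quantile normalization, 25 after centring, 15 when every Man-Su cold array had to lie below its own control, and 69 against the mean of all controls. All 112 members went against the label in the normal arrays under both normalizations. The time slope and the slope difference called 0 members in every alternative run, leaving out arrays included (0 to 0). Cold against normal called 0 members under both normalizations, with the control-level term and without any single cold array, and 17 with the labels of the normal arrays exchanged. It called 108 members, all higher, without Man-Su normal, and 106, all lower, without Shin-Hong normal (0 to 108 over all left-out arrays), as the cold arrays of 1 label then stand against 1 normal array. Also chosen after seeing the data, quantile normalization put 48 members in the stretch of paired feature numbers and centring 44. The narrowing at 120 min held in 37 members after quantile normalization, 44 after centring and 45 without Man-Su at 30 min in the earlier mean. No paired analysis was possible because every group has replicate 1 alone; the varieties share their cold times, but their difference in cold chose the members and gets no test. Signals near background limit the on or off folds to lower bounds.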
